A study of Rattus norvegicus with 49 samples.

Results

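Zfp354a, Dhrs7l1, Gimd1, Slc25a25, Slc34a2 and Srms are 6 genes of the 15154 named on a 2-colour microarray of rat liver, chosen by how far their log2 ratios moved in males given furan at 0.5 or 2 mg/kg. The male arrays at those doses and the male controls served in the choice, which set no numeric limit. Differences between furan-treated males and male controls are therefore descriptions without a test. Each gene was read by 1 probe, found through the RefSeq accession given for it in the array files, and each of the 6 probes was among the 17661 of 30367 transcript probes that passed the signal filter, Dhrs7l1 and Gimd1 through male groups alone. Slc25a25 was printed in 10 spots per array, Gimd1 in 1 spot, and the other 4 genes in 2 spots each.

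The rats were male and female F344 animals that were 7 to 8 weeks old when dosing began. Each received corn oil by gavage on 5 days per week for 90 days, with furan at 2, 0.5, 0.12 or 0.03 mg/kg or, in the controls, without furan. Total liver RNA of 1 animal per array was labelled with Cy5 and hybridised against a universal rat reference RNA labelled with Cy3. There were 5 arrays in each of 9 groups and 4 arrays in males at 0.03 mg/kg, 49 in all on 8 slides. Values below are log2 ratios of liver over reference, so they compare one gene across animals and do not rank one gene above another.

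Furan is a small volatile oxygen heterocycle formed when food is heated, and the liver oxidises it to a reactive dialdehyde that binds proteins and thiols. Rat liver also expresses many genes in a sex-dependent way, under the pattern of growth hormone release from the pituitary. The 6 genes have unlike roles. Zfp354a, also called Kid1, encodes a KRAB zinc finger repressor of transcription first described in kidney. Dhrs7l1 encodes a member of the short-chain dehydrogenase/reductase family, whose enzymes act on steroids, retinoids and other carbonyl compounds, and Gimd1 encodes a protein with a GIMAP-type GTPase domain. Slc25a25 is a calcium-regulated carrier of ATP-Mg and phosphate in the inner mitochondrial membrane, Slc34a2 is a sodium-phosphate cotransporter best known from lung and gut, and Srms is a non-receptor tyrosine kinase related to Ptk6 and the Src family.

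On 48 arrays between 37.9% and 71.1% of transcript spots had a liver signal well above background, whereas in the array of male 26 at 0.03 mg/kg 5.06% did, and its reference channel was dim too (9.83%). This dim array is kept, and values of the males at 0.03 mg/kg are given with and without it. A male array was set aside in the study after quality checks, and whether that remark concerns the dim array is not given in the sources used here. Slides 5 and 6 held no controls, and their median share of liver spots above background was 43.2% and 45.0%, against 49.3% to 69.0% on the other 6 slides. Slide 7 held no male control and slide 8 no female control. The fits below take slide as a block. Each of the 10 hepatocyte markers was above background on at least 1 array of every group. With the dim array left out, all 10 were above background on every array of each group but males at 0.5 mg/kg, where 9 were. The male liver genes Cyp3a2, Cyp4a2 and Cyp2c11 averaged log2 ratios of 7.33 to 9.63 on male arrays other than the dim one, where the mean was 2.85, and 0.05 to 2.69 on female arrays. The highest female mean was at 0.12 mg/kg, and the highest in female controls was 1.23. RNA came from whole liver, so fewer cells of a type and less RNA per cell cannot be told apart.

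Promoter windows of 300 bases, from 250 before to 50 after the annotated start, were matched in RefSeq (GRCr8) for all 6 genes and searched on both strands for 7 motifs. The cyclic AMP response element TGACGTCA was in 1.83% of 33469 promoters and among the 6 genes in Slc25a25. The D-box TTANGTAA (2.24% of promoters) and the antioxidant response element core TGACNNNGC (12.1%) were also found in Slc25a25. The glucocorticoid receptor hexamer TGTTCT (20.7%) was found in Dhrs7l1 and Gimd1, and the nuclear receptor hexamer AGGTCA (16.2%) in Gimd1 and Srms. The E-box CACGTG (6.42%) and TATAAA (14.2%) were in none of the 6 windows. The windows of Slc25a25, Dhrs7l1 and Gimd1 are shown because Slc25a25 held the least common of these motifs and the other 2 genes were above background in males and near it in females. Capitals mark the motifs. In Slc25a25 they begin at -158 (TGACGTCA), -79 (TGACTGTGC) and -45 (TTAAGTAA) from the start, in Dhrs7l1 at -65 (TGTTCT), and in Gimd1 at -34 (TGTTCT) and 15 (AGGTCA).
Slc25a25, chr3:36116532-36116831, minus strand: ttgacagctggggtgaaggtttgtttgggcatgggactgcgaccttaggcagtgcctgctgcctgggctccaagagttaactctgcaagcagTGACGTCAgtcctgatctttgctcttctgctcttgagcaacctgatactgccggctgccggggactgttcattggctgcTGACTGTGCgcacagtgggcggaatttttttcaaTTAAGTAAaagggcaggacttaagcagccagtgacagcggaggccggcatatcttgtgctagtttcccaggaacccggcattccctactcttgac
Dhrs7l1, chr6:97047850-97048149, minus strand: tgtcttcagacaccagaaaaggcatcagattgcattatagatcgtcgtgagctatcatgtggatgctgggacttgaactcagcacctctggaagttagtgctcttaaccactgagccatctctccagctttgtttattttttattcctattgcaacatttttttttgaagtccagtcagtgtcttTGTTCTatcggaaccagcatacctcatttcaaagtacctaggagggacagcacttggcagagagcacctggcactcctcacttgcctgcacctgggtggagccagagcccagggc
Gimd1, chr2:223777649-223777948, plus strand: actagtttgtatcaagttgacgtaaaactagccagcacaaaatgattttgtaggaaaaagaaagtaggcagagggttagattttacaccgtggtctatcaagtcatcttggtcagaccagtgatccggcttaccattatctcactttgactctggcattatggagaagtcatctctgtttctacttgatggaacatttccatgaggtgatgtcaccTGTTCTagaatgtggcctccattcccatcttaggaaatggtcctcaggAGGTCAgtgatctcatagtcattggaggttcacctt

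Zfp354a was higher in treated males than in male controls, highest at 0.12 and 0.5 mg/kg. The log2 ratios in the male controls were 0.91, 1.25, 1.27, 2.59 and 3.31. At 0.12 mg/kg they were 2.87, 4.27, 4.30, 5.18 and 5.46, and at 0.5 mg/kg 2.29, 3.48, 4.18, 5.00 and 5.09. One animal at 0.12 mg/kg and 1 at 0.5 mg/kg lay within the range of the controls, and the other 4 in each group lay above it. At 2 mg/kg the ratios were 1.57, 2.88, 2.90, 3.80 and 3.97, so that 2 of 5 animals exceeded the highest control. The males at 0.03 mg/kg read 1.22, 2.19 and 4.57, with 0.26 on the dim array, where the gene was not well above background.

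With slide as a block, the difference of Zfp354a from male controls was 2.89 ± 0.48 (log2, SE) at 0.12 mg/kg, a 7.43-fold higher ratio, and 2.68 ± 0.49, or 6.42-fold, at 0.5 mg/kg. It was 1.55 ± 0.49, or 2.93-fold, at 2 mg/kg. For 0.03 mg/kg it was 0.70 ± 0.52 with the dim array and 1.20 ± 0.55 without it. The order of the male group means was 4.42 ± 1.01 (SD, n = 5) at 0.12 mg/kg, 4.01 ± 1.16 at 0.5 mg/kg, 3.02 ± 0.96 at 2 mg/kg, 2.06 ± 1.85 (n = 4) at 0.03 mg/kg (2.66 ± 1.73, n = 3, without the dim array) and 1.87 ± 1.03 in controls, and neighbours in this order differed by less than the larger of their SDs. Within single slides that held both groups, Zfp354a was higher than in controls in 4 of 4 slides at 0.12 mg/kg, by 0.95 to 4.19, in 2 of 2 slides at 0.5 mg/kg, by 1.77 and 2.41, and in 3 of 3 slides at 2 mg/kg, by 0.66 to 2.69. In ranks by size of the difference over 11380 named probes, Zfp354a stood 1st at 0.5 mg/kg and 27th at 2 mg/kg.

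Among females, Zfp354a was well above background on every array, and the groups overlapped at each dose. The log2 ratios were 1.35, 1.40, 1.58, 1.94 and 2.76 in female controls and 0.88, 0.89, 1.92, 2.05 and 2.35 at 2 mg/kg. The plain difference at 2 mg/kg was -0.19 and the slide-block difference 0.78 ± 0.50 (limma, adjusted p = 0.433), so the sign depended on the slide term. In single slides the 2 mg/kg females were above the female control in 2 of 2 slides, by 0.41 and 0.70. At the lower doses the slide-block differences were 1.11 ± 0.49, 1.07 ± 0.49 and 0.75 ± 0.49, with limma adjusted p of 0.9999, 0.790 and 0.618.

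**Figure D1:**
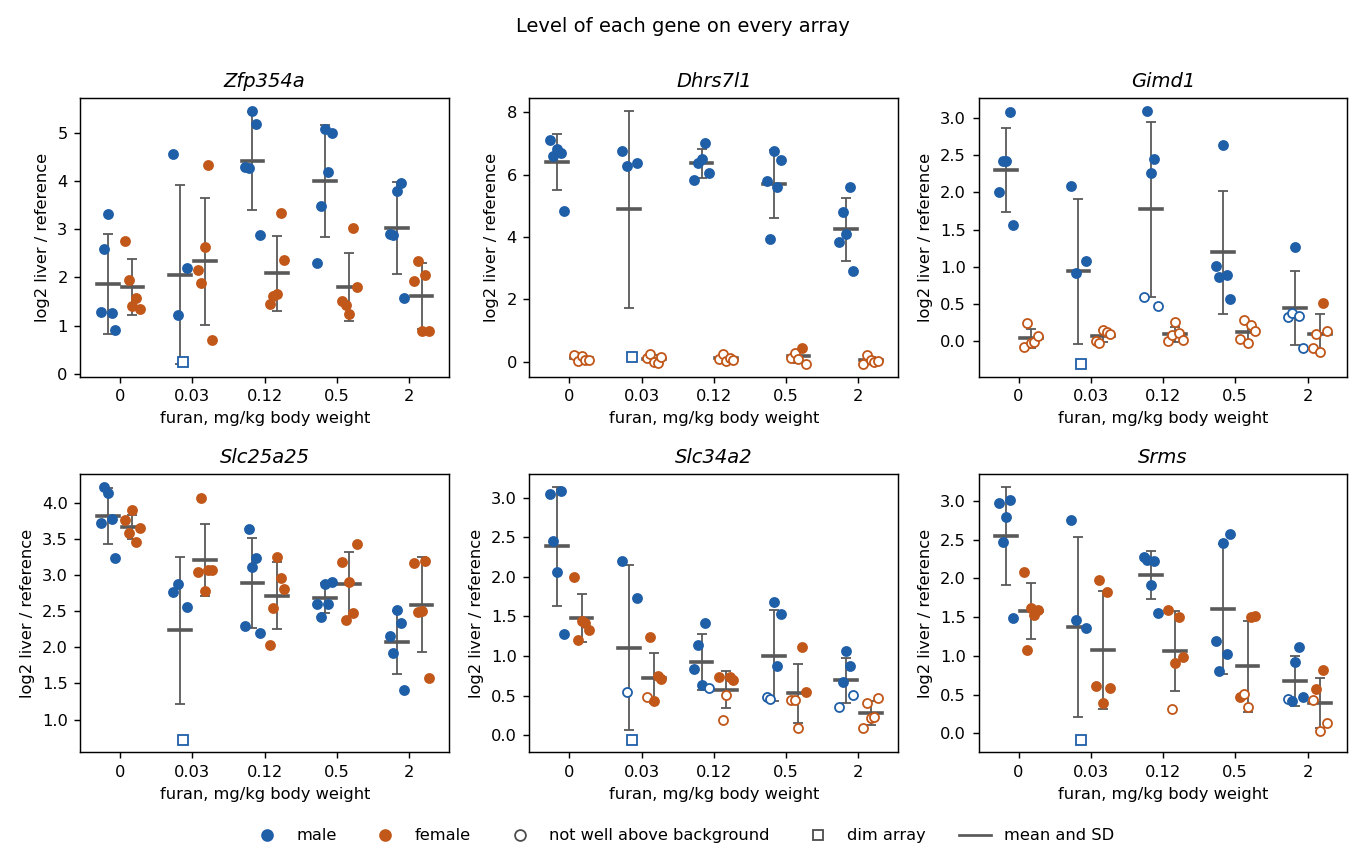
Log2 ratio of liver over reference for the 6 genes in each animal, by furan dose (mg/kg, categories on the horizontal axis) and sex, with group means and SDs as bars, open symbols for values not well above background and a square for the dim array. In males Dhrs7l1 lies between 4.85 and 7.11 in controls and between 2.91 and 5.60 at 2 mg/kg, and in females it sits near 0 at each dose.

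Dhrs7l1 was a male liver transcript in these arrays and was lower in males at 2 mg/kg. The log2 ratios were 4.85, 6.61, 6.70, 6.83 and 7.11 in male controls. At 0.12 mg/kg they were 5.84, 6.05, 6.38, 6.51 and 7.01, at 0.5 mg/kg 3.93, 5.61, 5.80, 6.46 and 6.74, and at 2 mg/kg 2.91, 3.83, 4.09, 4.80 and 5.60. Of the males at 2 mg/kg, 4 lay below the lowest control, which was itself apart from the next, and the fifth lay within the control range. Of the males at 0.03 mg/kg, 3 read 6.27, 6.36 and 6.76, within the control range, and the dim array read 0.17.

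The slide-block difference of Dhrs7l1 from male controls was 0.14 ± 0.58 at 0.12 mg/kg, -0.86 ± 0.60 at 0.5 mg/kg and -1.95 ± 0.59, a 3.86-fold lower ratio, at 2 mg/kg. In males at 0.03 mg/kg it was -1.44 ± 0.64 with the dim array and 0.08 ± 0.39 without it, so that its direction rested on that array. The 2 mg/kg males were lower than the control in 3 of 3 slides that held both, by 1.51 to 2.61 on the log2 scale. At 0.5 mg/kg the difference in the 2 such slides was -0.08 and -0.15. With the scanner's own ratio the difference at 2 mg/kg was -0.65 ± 0.79, within its SE. In the order of means, male controls (6.42 ± 0.90, SD, n = 5) and males at 0.12 mg/kg (6.36 ± 0.45) lay within their spread, as did the latter and males at 0.5 mg/kg (5.71 ± 1.10), while males at 2 mg/kg (4.25 ± 1.01) lay below males at 0.5 mg/kg by more than either SD. In females Dhrs7l1 was well above background on 1 of 25 arrays, that of female 70 at 0.5 mg/kg with a ratio of 0.45, and the other 24 read between -0.07 and 0.27. No fold between female groups is given for it.

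Gimd1 was also above background in male and near background in female liver, and it was lowest in males at 2 mg/kg. The log2 ratios were 1.55, 2.01, 2.43, 2.43 and 3.09 in male controls and -0.11, 0.32, 0.34, 0.37 and 1.26 at 2 mg/kg, where 1 of 5 arrays was well above background. The 2 groups did not overlap, as was so, lower at 2 mg/kg, for 1.6% of all probes tested. The males at 0.12 mg/kg read 0.46, 0.58, 2.26, 2.45 and 3.103, with the 2 lowest not well above background, and at 0.5 mg/kg they were 0.56, 0.86, 0.88, 1.005 and 2.65. At that dose 4 of 5 males lay below every control and the fifth inside the control range, and at 0.12 mg/kg the animals fell on both sides of the lowest control. The arrays at 0.03 mg/kg read 0.91, 1.07 and 2.08, with -0.31 on the dim array.

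From male controls, Gimd1 differed by -0.47 ± 0.30 at 0.12 mg/kg, -1.01 ± 0.31 at 0.5 mg/kg and -1.71 ± 0.31 at 2 mg/kg, where 4 of 5 arrays were not well above background. The last value was -2.46 with a normexp offset of 10 and -3.64 with the scanner's ratio, so no fold is given. With the lowest dose the difference was -1.28 ± 0.33 with the dim array and -0.99 ± 0.35 without it. Male controls had the highest mean of Gimd1 (2.30 ± 0.57, SD, n = 5), followed by males at 0.12 mg/kg (1.77 ± 1.18), at 0.5 mg/kg (1.19 ± 0.83) and at 2 mg/kg (0.44 ± 0.50). Males at 0.03 mg/kg averaged 0.94 ± 0.98 (n = 4) with the dim array, below those at 0.5 mg/kg, and 1.35 ± 0.64 (n = 3) without it, above them, and neighbours lay within their spread in either order. In 3 of 3 slides the 2 mg/kg male was lower than the control, by 1.66 to 1.83 on the log2 scale. The 0.5 mg/kg males were lower in 1 of 2 slides (0.22 and -1.87), and those at 0.12 mg/kg in 2 of 4. In females 24 of 25 arrays were not well above background for Gimd1, with ratios of -0.16 to 0.28, and female 90 at 2 mg/kg read 0.51.

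Slc25a25, the mitochondrial ATP-Mg and phosphate carrier, was above background on 48 of 49 arrays and was lower in treated males at each dose. The log2 ratios in male controls were 3.24, 3.73, 3.78, 4.14 and 4.23. At 0.12 mg/kg they were 2.20, 2.29, 3.12, 3.24 and 3.64, at 0.5 mg/kg 2.42, 2.60, 2.60, 2.88 and 2.90, and at 2 mg/kg 1.41, 1.92, 2.16, 2.34 and 2.53. All 5 males at 0.5 mg/kg and all 5 at 2 mg/kg lay below every control (0.6% and 1.6% of all probes), while 1 at 0.12 mg/kg lay inside the control range and another equalled the lowest control to 2 decimals. The 3 brighter arrays at 0.03 mg/kg read 2.57, 2.77 and 2.88 and the dim array read 0.72, so that all 4 lay below every control (0.776% of all probes).

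The slide-block difference of Slc25a25 from male controls was -0.83 ± 0.29 at 0.12 mg/kg, -1.14 ± 0.30 (2.21-fold lower) at 0.5 mg/kg and -1.60 ± 0.30 (3.03-fold lower) at 2 mg/kg. For the males at 0.03 mg/kg it was -1.46 ± 0.32 with the dim array and -1.03 ± 0.31 without it. Slc25a25 was lower than in the control in each slide that held both groups, in 4 of 4 slides at 0.12 mg/kg, 2 of 2 at 0.5 mg/kg and 3 of 3 at 2 mg/kg. Male controls averaged 3.82 ± 0.39 (SD, n = 5), and the treated males 2.74 ± 0.16 (n = 3) at 0.03 mg/kg without the dim array, 2.90 ± 0.63 at 0.12 mg/kg, 2.68 ± 0.21 at 0.5 mg/kg and 2.07 ± 0.43 at 2 mg/kg. The 3 lower doses lay within their spread of each other.

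In females Slc25a25 was well above background on every array. The log2 ratios were 3.46, 3.58, 3.65, 3.76 and 3.91 in controls. The females at 0.12 mg/kg read 2.03, 2.55, 2.80, 2.96 and 3.26, those at 0.5 mg/kg 2.37, 2.48, 2.91, 3.18 and 3.43, and those at 2 mg/kg 1.58, 2.49, 2.51, 3.18 and 3.19. At these 3 doses every female lay below every control, as was so for 1.09%, 2.59% and 2.74% of all probes. Of the females at 0.03 mg/kg 4, at 2.78 to 3.08, lay below the controls and female 23 lay above them at 4.07. The slide-block differences at 0.03, 0.12, 0.5 and 2 mg/kg were -0.20 ± 0.30, -0.85 ± 0.30, -0.63 ± 0.30 and -0.67 ± 0.30, where the plain difference at 2 mg/kg was -1.08. None of them passed (limma, adjusted p = 0.9999, 0.590, 0.412 and 0.244).

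Slc34a2, the sodium-phosphate cotransporter, read lower in treated rats of both sexes and was close to background at the higher doses. The log2 ratios in male controls were 1.27, 2.07, 2.45, 3.04 and 3.09. The males at 0.12 mg/kg read 0.60, 0.63, 0.83, 1.14 and 1.41, at 0.5 mg/kg 0.45, 0.48, 0.88, 1.53 and 1.69, and at 2 mg/kg 0.36, 0.50, 0.67, 0.88 and 1.07. The 5 males at 2 mg/kg lay below every control (1.6% of all probes), whereas 1 male at 0.12 mg/kg and 2 at 0.5 mg/kg lay above the lowest control. Liver signal was well above background in 5 of 5 male controls, 4 of 5 males at 0.12 mg/kg, and 3 of 5 at 0.5 and at 2 mg/kg. Males at 0.03 mg/kg read 0.54, 1.73 and 2.21, with -0.06 on the dim array.

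From male controls, Slc34a2 differed by -1.33 ± 0.23 at 0.12 mg/kg, -1.19 ± 0.23 at 0.5 mg/kg and -1.50 ± 0.23 at 2 mg/kg. Not every array at these doses was well above background, so no fold is given. With the scanner's ratio the differences at 0.12, 0.5 and 2 mg/kg were -2.08, -2.35 and -2.66. For the lowest dose the slide-block difference was -1.05 ± 0.25 with the dim array and -0.72 ± 0.24 without it. The means of the treated males (0.92 ± 0.35, 1.005 ± 0.58 and 0.70 ± 0.29, SD, n = 5 each, at 0.12, 0.5 and 2 mg/kg) lay within their spread of each other and below the controls at 2.39 ± 0.75. Slc34a2 was lower than the control in 4 of 4 slides at 0.12 mg/kg (-2.42 to -0.44), 2 of 2 at 0.5 mg/kg (-0.92 and -0.38) and 3 of 3 at 2 mg/kg (-2.16 to -0.77).

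In female controls Slc34a2 read 1.20, 1.33, 1.42, 1.44 and 1.99, each well above background. At 2 mg/kg it read 0.09, 0.21, 0.24, 0.40 and 0.47, with none of 5 arrays well above background. The 0.12 mg/kg females read 0.20, 0.51, 0.70, 0.73 and 0.74, and at 0.5 mg/kg 0.09, 0.44, 0.45, 0.55 and 1.11. Of these, 3 of 5 at 0.12 mg/kg and 2 of 5 at 0.5 mg/kg were well above background. The females at 0.12, 0.5 and 2 mg/kg lay below every control, as was so for 1.09%, 2.59% and 2.74% of all probes. Of those at 0.03 mg/kg, 4 of 5 did (0.43, 0.49, 0.71 and 0.75), and the other read 1.24, just above the lowest control. The slide-block differences were -0.52 ± 0.23, -0.58 ± 0.23, -0.60 ± 0.23 and -0.71 ± 0.24 at 0.03, 0.12, 0.5 and 2 mg/kg. With the dim array in the fit none passed (limma, adjusted p = 0.9999, 0.695, 0.267 and 0.102), and without it the difference at 2 mg/kg was -0.77 ± 0.21 and passed (limma, adjusted p = 0.0260), as did 1.4% of all probes. The treated females at 2 mg/kg were at background, which limits what either value says of size.

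Kidney and lung, where Zfp354a and Slc34a2 are better known, were checked through 7 marker genes, 6 of them on the array. None of the 6 was above background on every array of a group, and their mean log2 ratio was between -0.09 and 0.38 over all arrays.

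Srms, the tyrosine kinase, read lower at 2 mg/kg in both sexes. The log2 ratios were 1.49, 2.47, 2.80, 2.98 and 3.02 in male controls and 0.42, 0.45, 0.47, 0.92 and 1.11 at 2 mg/kg. These 2 groups did not overlap (1.6% of all probes). In males at 0.12 mg/kg the ratios were 1.55, 1.91, 2.22, 2.23 and 2.28, each inside the control range, and at 0.5 mg/kg they were 0.81, 1.02, 1.19, 2.46 and 2.57, with 3 animals below every control and 2 inside the range. Those at 0.03 mg/kg were 1.36, 1.47 and 2.75, and -0.08 on the dim array.

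From male controls, Srms differed by -0.29 ± 0.24 at 0.12 mg/kg, -0.60 ± 0.24 (1.52-fold lower) at 0.5 mg/kg and -1.48 ± 0.24 at 2 mg/kg. Liver signal was well above background in 4 of 5 males at 2 mg/kg, so no fold is given for that dose. With the lowest dose the difference was -0.75 ± 0.26 with the dim array and -0.30 ± 0.23 without it. The male means ran in the order controls (2.55 ± 0.63, SD, n = 5), 0.12 mg/kg (2.04 ± 0.31), 0.5 mg/kg (1.61 ± 0.84) and 2 mg/kg (0.67 ± 0.32), with only the last step larger than either SD. Males at 0.03 mg/kg averaged 1.37 ± 1.16 (n = 4) with the dim array, between the 2 upper doses and within the larger SD of each, and 1.86 ± 0.78 (n = 3) without it, above 0.5 mg/kg and within its spread. In 3 of 3 slides Srms was lower at 2 mg/kg than in the control, by 1.01 to 2.10 on the log2 scale. It was lower in 1 of 2 slides at 0.5 mg/kg (0.10 and -0.34) and in 3 of 4 at 0.12 mg/kg.

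In females Srms read 1.07, 1.53, 1.59, 1.62 and 2.09 in controls and 0.03, 0.13, 0.43, 0.58 and 0.82 at 2 mg/kg, without overlap (2.74% of all probes). Liver signal was well above background in 5 of 5 female controls, 3 of 5 females at 0.5 mg/kg and 2 of 5 at 2 mg/kg. That limits what the differences say of size. At 0.5 mg/kg it read 0.34, 0.47, 0.51, 1.502 and 1.51, and the groups overlapped. The plain difference at 2 mg/kg was -1.19, and with slide as a block it was -0.51 ± 0.25 (limma, adjusted p = 0.275), or -0.60 ± 0.20 without the dim array (adjusted p = 0.0607). In the 2 slides that held both groups it was lower at 2 mg/kg by 0.49 and 0.78 on the log2 scale.

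**Figure D2:**
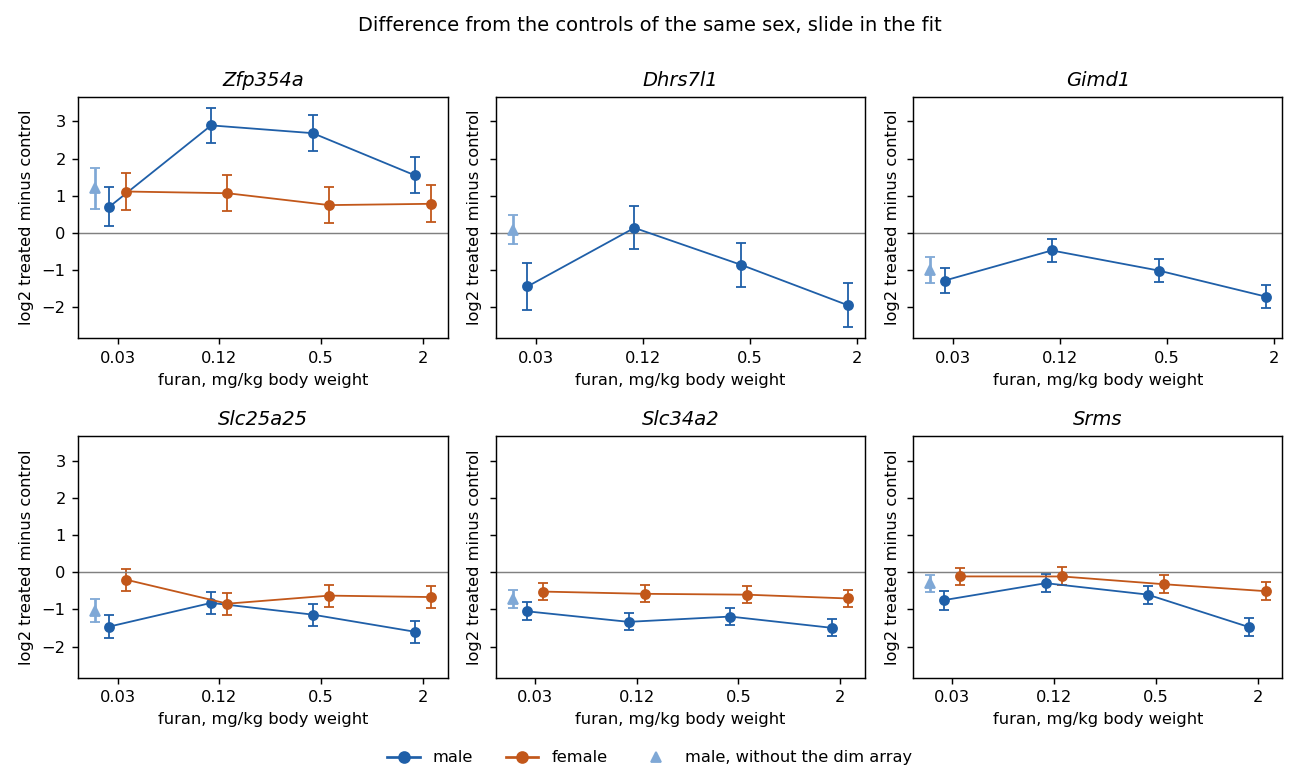
Difference in log2 ratio from controls of the same sex by furan dose, with slide as a block and SEs as bars, for males and for females, and for males at 0.03 mg/kg also without the dim array (triangles). Females are left out for Dhrs7l1 and Gimd1, which were near background in them, and in males Zfp354a lies above 0 while the other 5 genes lie below 0 at 0.5 and 2 mg/kg.

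In males at 2 mg/kg, 4 of the 6 genes (Gimd1, Slc25a25, Slc34a2 and Srms) lay below the controls without overlap (1.6% of all probes), and at 0.5 and 0.03 mg/kg Slc25a25 did (0.6% and 0.776%). The share of 0.776% was counted with the dim array, and none was computed without it. All 6 genes passed 1.5-fold at 2 mg/kg, as 5.8% of all probes did. These arrays chose the genes, so nothing is read from the counts. The smallest of the 6 differences were those of Srms, -0.60 at 0.5 mg/kg and -1.48 at 2 mg/kg, which ranked 183rd and 31st by size among named probes.

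The female arrays were not used to choose the genes, so they were tested against female controls at each dose. With the slide block and an adjusted p of at most 0.05 with a fold of at least 1.5, 0 of the 6 genes passed at any dose, where, from the lowest dose to the highest, 0%, 0.00566%, 0.017% and 0.657% of all probes did. Dhrs7l1 and Gimd1 entered the tested probes through male groups alone and were near background in females, so nothing is read from their not passing. The result rests on Zfp354a, Slc25a25, Slc34a2 and Srms. Of these, Slc34a2 and Srms were not well above background on every female array at 0.12, 0.5 and 2 mg/kg. Before adjustment, Zfp354a and Slc34a2 were under 0.05 at 0.03 mg/kg, as were 4.42% of all probes, Zfp354a, Slc25a25 and Slc34a2 at 0.12 mg/kg (6.04%), Slc25a25 and Slc34a2 at 0.5 mg/kg (11.4%), and Slc25a25, Slc34a2 and Srms at 2 mg/kg (17.6%). Slc25a25 and Slc34a2 lay below the female controls without overlap at 0.12, 0.5 and 2 mg/kg (1.09%, 2.59% and 2.74% of all probes), and Srms did so at the highest dose. Overlap was read from ratios without a slide term. Slides 5, 6 and 8 held no female control, and 1 female at 2 mg/kg was on slide 5 and 2 were on slide 8. At 2 mg/kg the slide term took the difference of Slc25a25 from -1.08 to -0.67, of Slc34a2 from -1.20 to -0.71 and of Srms from -1.19 to -0.51. The female comparisons share their 5 control arrays. Whether the differences from controls were larger in males than in females was not tested, since the male arrays chose the genes.

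Males and females at 0.12 mg/kg, neither of which served in the choice, were compared next. These females include the array with the highest female mean of the male liver genes, 2.69. Of the 4 genes well above background on 3 or more arrays of each sex, Zfp354a and Srms passed the test, higher in males, and Slc25a25 and Slc34a2 did not. Over all probes 3.6% passed in either direction and 1.89% were higher in males. Dhrs7l1 and Gimd1 entered the tested probes through their male groups, which fixes the direction, so their values are a description. Dhrs7l1 was at least 50.0-fold higher in males, all 5 of which were above background, than in females, none of which was. Gimd1, above background in 3 of 5 males and no female, was at least 2.65-fold higher. Neither gene overlapped between the sexes, as was so, higher in males, for 1.8% of all probes.

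Zfp354a was 4.18-fold higher in males than in females at 0.12 mg/kg (2.06 ± 0.48, limma adjusted p = 0.00482), where the females read 1.44, 1.62, 1.65, 2.36 and 3.34 and 1 male, at 2.87, lay inside their range. Srms was higher in males (0.83 ± 0.24, limma adjusted p = 0.0261), with females at 0.32, 0.91, 0.99, 1.501 and 1.60. No fold is given, since 4 of 5 of these females were well above background. Leaving out the slide block ended the call of Srms (0.98, adjusted p = 0.245), and median centring lowered the difference to 0.31. Slc25a25 and Slc34a2 differed by 0.28 ± 0.29 and 0.24 ± 0.23 and did not pass (limma adjusted p = 0.643 and 0.595). In each of the 3 slides that held both groups, Zfp354a, Dhrs7l1, Gimd1 and Srms were higher in the male.

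**Figure D3:**
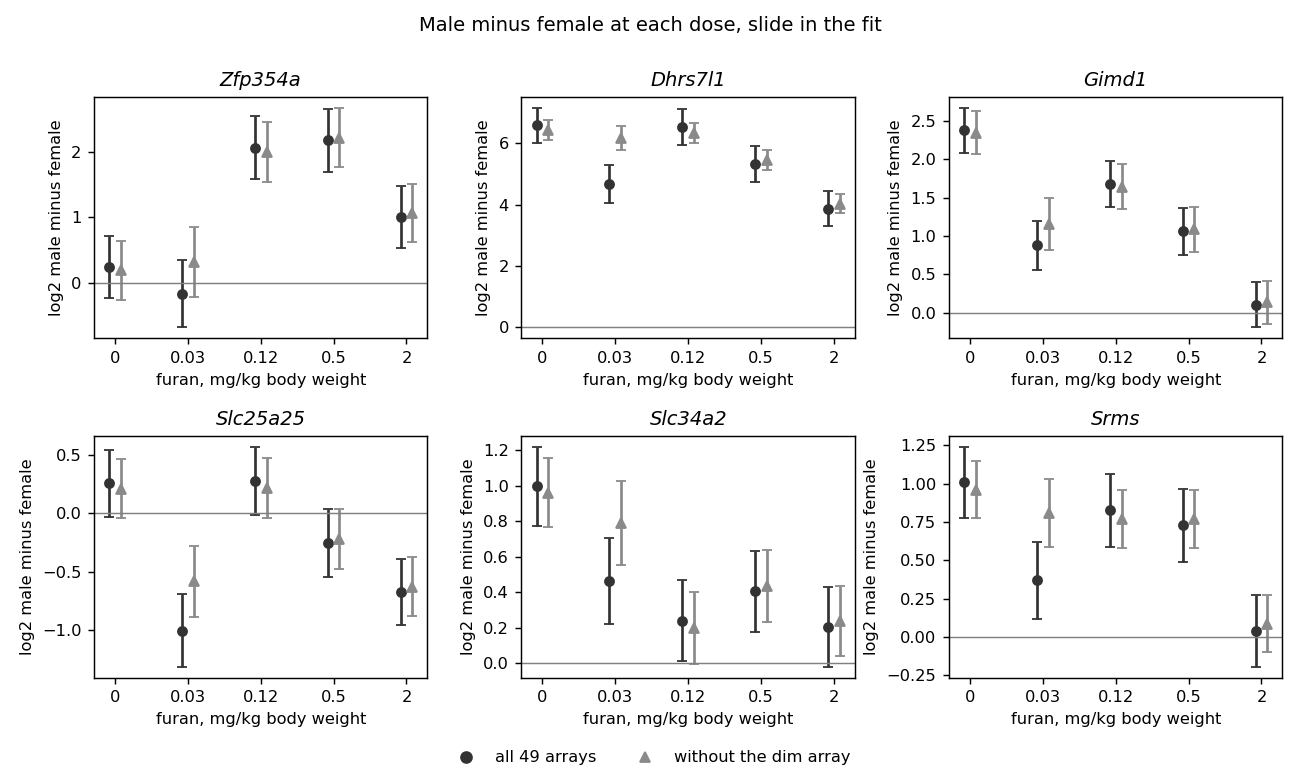
Male minus female difference in log2 ratio of each gene by furan dose (mg/kg), with slide as a block and SEs as bars. The difference of Zfp354a is 0.24 in controls and 2.06 at 0.12 mg/kg, and that of Srms is 1.01 in controls and 0.04 at 2 mg/kg, while the panels of Dhrs7l1 and Gimd1 set males against females near background, so their heights are not folds.

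Across the doses the male minus female difference took a separate course for each gene, given as a description because male controls and the 2 upper doses served in the choice. For Zfp354a it was 0.24 ± 0.47 in controls, 2.06 ± 0.48 at 0.12 mg/kg, 2.17 ± 0.48 at 0.5 mg/kg and 1.01 ± 0.47 at 2 mg/kg. For Dhrs7l1 the liver signal in males was at least 60.4-fold that in females among controls and at least 12.3-fold at 2 mg/kg. For Gimd1 it was at least 4.10-fold in controls and at least 1.64-fold at 0.5 mg/kg, and at 2 mg/kg the log2 difference was 0.10 ± 0.30. Srms was 1.01 ± 0.23 higher in male controls and differed by 0.04 ± 0.23 at 2 mg/kg. Slc34a2 was 0.995 ± 0.22 higher in male controls and 0.20 ± 0.22 at 2 mg/kg, where no female was above background. Slc25a25, at 0.26 ± 0.29 in controls, was -0.67 ± 0.29 at 2 mg/kg.

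Beside these values, the male liver genes Cyp3a2, Cyp4a2 and Cyp2c11 averaged 8.07 to 9.63 in male controls and 7.33 to 8.85 in males at 2 mg/kg. The female liver genes Cyp2c12, Sult2a2 and A1bg averaged 0.69 to 1.67 in male controls and 1.21 to 2.33 in males at 2 mg/kg. In females the female liver genes averaged 6.73 to 8.85. The part of these genes in the lower Dhrs7l1 and Gimd1 of males at 2 mg/kg was not tested. The mean log2 ratio of 7 bile duct markers ran from -1.98 to -1.39 in male controls and from -1.58 to -0.23 at 2 mg/kg. In females it ran from -2.05 to -1.64 in controls and from -1.45 to -1.02 at 2 mg/kg. For 8 stellate cell and fibroblast markers the male ranges, in the same order, were -1.08 to -0.48 and -0.89 to 0.26. The female ranges were -0.92 to -0.74 and -1.18 to -0.76. For the 10 hepatocyte markers the male ranges were 5.24 to 7.23 and 4.87 to 6.54. The female ranges were 5.96 to 6.92 and 5.099 to 6.599. The marker means have no slide term. Slides 5 and 8, with 1 and 2 of the females at 2 mg/kg, held no female control. Of the 7 bile duct markers, 5 were above background on every array of female controls and 2 on every array of females at 2 mg/kg. In males these counts were 3 and 4. The bile duct mean on the dim array was -0.10. The part of these markers in the differences at 2 mg/kg was not tested in either sex.

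Males at 0.12 and at 0.03 mg/kg were also compared, and 0 of the 6 genes passed, where 0.0736% of all probes did. Zfp354a came nearest, 2.19 ± 0.52 higher at 0.12 mg/kg (limma, adjusted p = 0.0567), and 1.69 ± 0.54 higher without the dim array (adjusted p = 0.997). Dhrs7l1 differed by 1.58 ± 0.63 with the dim array and by 0.04 ± 0.38 without it. The other 4 genes differed by -0.28 to 0.81 (limma, adjusted p from 0.106 to 0.474), and by -0.62 to 0.52 without it, with a lowest adjusted p of 0.997. Without that array 0% of all probes passed. Before adjustment 4779 probes were under 0.05 with it and 737 without it.

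**Figure D4:**
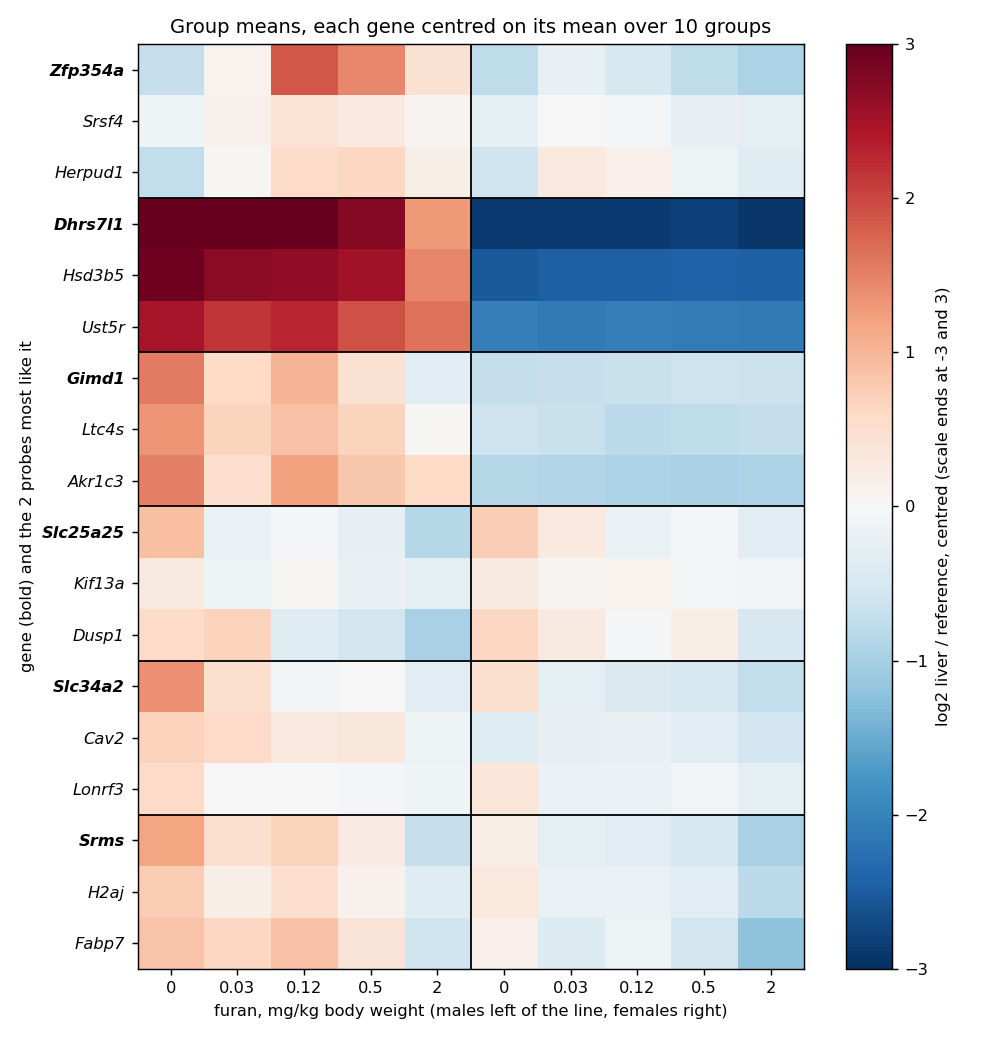
Group mean log2 ratio of each of the 6 genes and of the 2 genes most like it, centred per gene over the 10 sex and dose groups, on a colour scale from -3 to 3, with males at 0.03 mg/kg shown without the dim array. Each block of 3 rows has 1 of the 6 genes on top, and the rows under it follow it to different degrees: Cav2 is below its own mean in female controls, where Slc34a2 is above its own, and Dusp1 is above its mean in males at 0.03 mg/kg, where Slc25a25 is below.

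The genes whose log2 ratios ran most like those of each of the 6 were found by Pearson correlation over the 48 arrays other than the dim one, after the slide terms of the fit were taken out. The arrays share slides and reference RNA and fall into 2 sexes, so the values within 23 male arrays are given too, and none carries a test. Zfp354a ran with Srsf4 (0.87, and 0.90 within males), a splicing factor, Herpud1 (0.85, and 0.93), which acts in degradation of misfolded proteins at the endoplasmic reticulum, and the phosphatase gene Ptp4a1 (0.85, and 0.88). Herpud1 averaged 1.62 in male controls, 2.91 at 0.12 mg/kg, 2.98 at 0.5 mg/kg and 2.52 at 2 mg/kg, the course seen for Zfp354a on a smaller scale.

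For Dhrs7l1, whose arrays fall apart by sex, only the values within males are read, and they were 0.88 with Hsd3b5, a hydroxysteroid dehydrogenase gene of male rat liver, 0.84 with Ust5r, and 0.86 with Omd. Hsd3b5 averaged 5.37 in male controls and 3.92 in males at 2 mg/kg and was within 0.06 of 0 in each female group. For Gimd1 they were 0.75 with Ltc4s, which encodes leukotriene C4 synthase, and 0.66 with the aldo-keto reductase gene Akr1c3.

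Slc25a25 ran with Kif13a, a kinesin (0.72, and 0.88 within males), Dusp1, a phosphatase of MAP kinases (0.71, and 0.70), and Sik1, a salt-inducible kinase (0.68, and 0.66). Dusp1 and Sik1 are known as genes induced through cyclic AMP, and whether that bears on Slc25a25 was not tested. Dusp1 averaged 0.73 in male controls and -0.82 in males at 2 mg/kg, and 0.80 in female controls and -0.31 in females at 2 mg/kg. Slc34a2 ran with Cav2 (0.79, and 0.85), a caveolin, Lonrf3 (0.79, and 0.83) and Lyst (0.78, and 0.87), which acts in lysosomal traffic. Srms ran with the histone gene H2aj (0.89, and 0.89), the fatty acid binding protein gene Fabp7 (0.86, and 0.82) and the apolipoprotein gene Apon (0.86, and 0.85). Fabp7 averaged 7.31 in male controls and 5.86 at 2 mg/kg, and 6.61 and 5.23 in females.

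Among the 6 genes themselves, within the 23 male arrays, Gimd1 and Slc25a25 correlated at 0.85, Dhrs7l1 and Srms at 0.83 and Slc34a2 and Srms at 0.70, while Zfp354a and Slc34a2 correlated at -0.69. Within the 25 female arrays Slc34a2 and Srms correlated at 0.59. These arrays include those that chose the genes, and the values describe how the genes ran together across doses.

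Genes of the same families and pathways were listed by family, not by their values, 109 in all, and 86 of them were tested. In males at 2 mg/kg 2 rose and 3 fell (5 of 86, where 3.81% of all probes passed), and their median log2 difference was -0.07 against -0.02 over all probes. In males at 0.5 mg/kg 1 fell (0.142% of all probes), and among females 1 rose at 2 mg/kg (0.657% of all probes passed) and none passed at 0.5 mg/kg (0.017%), with 5 of 86 under 0.05 before adjustment, where 11.4% of all probes were.

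Of 18 mitochondrial carrier relatives of Slc25a25, Slc25a4, the adenine nucleotide translocator of muscle and heart, rose in males at 2 mg/kg (1.33 ± 0.42, limma adjusted p = 0.0278) and Slc25a16 fell (-0.68 ± 0.17, adjusted p = 0.00608). Slc25a15, the ornithine carrier of the urea cycle, fell in males at 0.5 mg/kg (-0.72 ± 0.12, limma adjusted p = 0.00818). Of 14 phosphate-handling relatives of Slc34a2, Alpl, which encodes tissue-nonspecific alkaline phosphatase, rose (0.78 ± 0.21, adjusted p = 0.00913) and Enpp1, which makes pyrophosphate, fell (-0.59 ± 0.10, adjusted p = 0.000121) in males at 2 mg/kg.

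Of 20 relatives of Srms (Src-type tyrosine kinases and their regulators), Ptk6, its near relative, fell in males at 2 mg/kg (-0.62 ± 0.14, limma adjusted p = 0.00221), and in females at 2 mg/kg it differed by 0.19 ± 0.14 (adjusted p = 0.506). Of 21 dehydrogenase relatives of Dhrs7l1, Hsd11b1, which regenerates active glucocorticoid, rose in females at 2 mg/kg (1.29 ± 0.36, limma adjusted p = 0.0478), with means of 0.33 in female controls and 1.43 at 2 mg/kg. Its difference in males at 2 mg/kg was -0.68 ± 0.35 (adjusted p = 0.200). None of 7 zinc finger relatives of Zfp354a and none of 6 GTPase relatives of Gimd1 passed in these 4 comparisons, and before adjustment 0 to 2 and 0 to 1 of them were under 0.05 in each.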

How the data were processed

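Liver RNA of 49 rats was measured on 2-colour Agilent arrays (Cy5 liver, Cy3 reference, no dye swap). The deposited files hold spot intensity, 0 or 1 quality marks and the scanner software's log10 ratio, from Feature Extraction 10.7.3.1 per the file headers. The authors' value table holds log2 ratios. Set against the arrays it ran on the same scale and direction (median slope 1.002), with column medians near 0, but most of its columns matched another array of the same group, so it was used by group alone, as an alternative.

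Median intensities were background corrected (normexp, offset 50) and loess normalised within arrays, outlier spots were left out, and spots of a probe were averaged. Probes were kept when the liver channel was well above background on 4 or more arrays of a group. Probe accessions were matched to RefSeq symbols. All 6 genes were named by the rule, with the 3 genes of highest correlation to each, of which 1 is not reported here. limma 3.58.1 (R 4.3.3) fitted 1 mean per sex and dose plus slide as a block over 49 arrays, with Benjamini-Hochberg adjustment within each comparison. A call needed adjusted p of at most 0.05 and a fold of at least 1.5. "At least" folds compare loess and Aquantile normalised liver signals, taking for a dim probe the higher of its own signal and the lowest signal among probes well above background. They have no slide term and are open to dye bias. Animals are the replicates, and their number limits the precision. The members and lists were chosen with earlier results of these data known. Scripts were tested on simulated data. Alternatives are given at the end.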

Additional observations from a re-analysis of the deposited data

Results flagged for a closer look

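Of 60 pairs of gene and group, 5 held 1 animal far from the others of its group by Dixon's criterion, which flags about 1 in 20 groups by chance. Dhrs7l1 read 4.85 in male control 6, against 6.61 to 7.11 in the other 4 controls. It read 0.165 in male 26 at 0.03 mg/kg, against 6.27 to 6.76, and Slc25a25 read 0.719 in the same animal, against 2.57 to 2.88, both on the dim array. Gimd1 read 2.65 in male 65 at 0.5 mg/kg, against 0.56 to 1.005 in the other 4. Slc25a25 read 4.07 in female 23 at 0.03 mg/kg, against 2.78 to 3.08. The causes were not tested.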

How the results depend on the processing

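Among the female comparisons, 0 of 6 genes passed, with Dhrs7l1 and Gimd1 near background in females, and no alternative changed that at 0.03 or 0.12 mg/kg. At 0.5 mg/kg array weights gave 1 (Slc34a2, adjusted p = 0.0298). At 2 mg/kg, 1 gene passed without the slide block (Slc34a2, -1.20, adjusted p = 0.0441), 1 without the dim array (Slc34a2, adjusted p = 0.0260), 1 in the authors' value table (Slc34a2, -1.31, adjusted p = 0.0327), 2 with array weights (Slc34a2 and Slc25a25, adjusted p = 0.00584 and 0.0203) and 2 with neither slide block nor dim array (0.0198 and 0.0299), the last chosen after seeing the data. Over all probes these 5 settings called 118, 248, 286, 465 and 309 at 2 mg/kg, against 116, median centring 44 and the liver channel alone 17. Of those called, 66 of 116 were higher, 44 of 118 without the slide block and 9 of 44 under median centring. For males against females at 0.12 mg/kg the count was 4, with Dhrs7l1 and Gimd1 in it, which passed the filter through males alone, and 1 of 2 testable genes when both groups had to be above background throughout, and 3 to 4 when any 1 array was left out. Srms lost its call without the slide block (adjusted p = 0.245, or 0.132 also without the dim array), with the scanner's ratio (0.161), with the value table (0.227), under median centring (0.439) and on leaving out female 42, 44 or 49 or male 41 or 52 (0.0545 to 0.110). Over all probes 334 of 635 calls were higher in males, and 168 of 545 under median centring. For males at 0.12 against 0.03 mg/kg the count of 0 became 1 (Zfp354a) under median centring and with the liver channel alone, and ran from 0 to 4 on leaving out 1 array: 4 without male 22, 2 without male 25 or 27 and 1 without male 52, each with the dim array still in the fit. All 6 genes passed 1.5-fold in males at 2 mg/kg, also on leaving out any 1 array (6 to 6), and 3 of 3 testable when above background throughout. These arrays chose the genes, so nothing is read from those counts. Gimd1, Slc34a2 and Srms were not well above background on every male array at that dose. The Dhrs7l1 difference in males at 0.03 mg/kg, -1.44, turned to 0.085 without the dim array (male 26), 0.046 also without the slide block, 0.061 in the value table and 0.012 with array weights, and ran from -2.08 to 0.085 on leaving out 1 array. The 5 calls among relatives in males at 2 mg/kg became 9 without the dim array, with or without the slide block, 10 with the scanner's ratio, 3 under median centring and 8 with array weights.

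Same-numbered males and females are different animals (8 pairs, correlations of deviations -0.21 to 0.29), so they share only a number. With that number as a replicate block the counts of calls among the 6 genes stayed at 0 in the females, 4 for males against females and 0 for males at 0.12 against 0.03 mg/kg, and over all probes went from 0 to 1 in females at 0.03 mg/kg and from 635 to 651 for the sexes. Each gene has 1 probe, so averaging probes could not be tried. Under median centring the median difference of all probes was -0.17 to 0.13, against -0.03 to 0.03. With the scanner's ratio the male differences that moved by over 1.5-fold included Dhrs7l1 at 2 mg/kg (-0.65) and Gimd1 at 0.03, 0.12, 0.5 and 2 mg/kg (-2.56, -1.07, -1.96 and -3.64). Slc34a2 in males did so at 0.03, 0.12, 0.5 and 2 mg/kg (-2.24, -2.08, -2.35 and -2.66). The female differences that moved this far included Slc34a2 at 0.12, 0.5 and 2 mg/kg (-1.27, -1.87 and -2.35) and Srms at 2 mg/kg (-1.14). Values near background, such as Slc34a2 at 2 mg/kg, Srms in females at 2 mg/kg and Gimd1 in females, limit any fold to a bound.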
